A study of Homo sapiens with 72 samples.

Results

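A set of 548 protein-coding genes carried trimethylated lysine 4 of histone H3 (H3K4me3) at their starts in REH cells and had none called there in Raji cells. The rule took GENCODE genes with an H3K4me3 peak within 1 kb of any annotated start in at least 5 of 6 REH libraries and in 0 of 6 Raji libraries, and it found 548 of 20033 genes (2.74%). Of these, 483 had a peak in all 6 REH libraries and 65 had a peak in 5. The genes were thus chosen by the H3K4me3 peaks of REH and Raji, and that contrast is given below as a description, with no test.

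The libraries were made by Cut&Tag, in which an antibody tethers a transposase to chromatin that carries a histone mark, from 3 human B-lineage cell lines. REH and NALM6 are precursor B acute lymphoblastic leukemia lines, REH carrying the ETV6-RUNX1 fusion, and Raji is a Burkitt lymphoma line. Each line was left untreated or was kept in 1 nM bryostatin, a macrolide that activates protein kinase C, overnight by the labels and for a day by the study's text, and each of the 6 combinations of line and treatment was profiled in 3 libraries for H3K4me3, H3K4me2 and H3K27me3, 54 libraries in all. Each line is a single established culture, and nothing in the labels says that the 3 libraries of a group came from separate cultures, so p-values measure the spread between libraries, which may be technical.

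H3K4me3 lies over the starts of genes that are active or ready to be transcribed. H3K4me2 covers starts more broadly and also marks enhancers. H3K27me3, deposited by Polycomb repressive complex 2, covers silent developmental genes, and in stem and progenitor cells it can share a start with H3K4me3. In precursor B cells the surrogate light chain, the recombinase and terminal transferase build the antigen receptor, and mature B cells shut these genes off.

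Promoter sequences of 6 of the genes are shown because the results below turn on them. They run from 250 bases before to 50 bases after the start in RefSeq (GRCh38.p14), 5′ to 3′ on the gene's strand, and 398 of the 548 genes had an entry in that table. All 300 bases of each lay inside the H3K4me3 region of its gene in REH. Capitals mark letters that match a searched motif on either strand, namely RUNX (TGTGGT), ETS (CCGGAAGT), E-box (CAGCTG, the same on both strands), AP-1 (TGANTCA), CRE (TGACGTCA), NFY (CCAAT), SP1 (GGGCGGGG), the GATA factors (AGATAA) and the TATA box (TATAAA). CBFA2T3, a corepressor of the ETO family, had the highest REH signal of all members when summed over its starts, and its window is chr16:88941301-88941600 on the minus strand.
CBFA2T3: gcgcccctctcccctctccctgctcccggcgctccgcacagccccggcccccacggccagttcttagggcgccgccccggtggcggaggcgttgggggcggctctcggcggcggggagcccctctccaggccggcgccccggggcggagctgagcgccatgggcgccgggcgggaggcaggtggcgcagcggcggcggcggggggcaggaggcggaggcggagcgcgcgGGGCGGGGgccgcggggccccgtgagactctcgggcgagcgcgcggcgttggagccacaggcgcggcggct
BAHCC1, a chromatin reader of H3K27me3, was also marked in all 6 NALM6 libraries, and its window is chr17:81395207-81395506 on the plus strand.
BAHCC1: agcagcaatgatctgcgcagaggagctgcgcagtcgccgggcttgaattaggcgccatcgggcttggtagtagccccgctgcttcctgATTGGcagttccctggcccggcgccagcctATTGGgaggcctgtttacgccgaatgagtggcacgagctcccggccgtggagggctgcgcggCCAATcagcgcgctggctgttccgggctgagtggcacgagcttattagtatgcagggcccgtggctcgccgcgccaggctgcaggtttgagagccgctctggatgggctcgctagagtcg
ELFN1, a synaptic adhesion protein, was marked in no NALM6 library, and its window is chr7:1665814-1666113 on the plus strand, with no match to any of the motifs.
ELFN1: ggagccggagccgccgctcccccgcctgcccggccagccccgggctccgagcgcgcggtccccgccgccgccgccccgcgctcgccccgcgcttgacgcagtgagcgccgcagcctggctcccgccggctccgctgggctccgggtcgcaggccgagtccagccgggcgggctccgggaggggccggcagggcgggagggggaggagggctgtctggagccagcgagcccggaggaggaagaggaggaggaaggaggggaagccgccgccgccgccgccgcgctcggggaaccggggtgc
KCNJ2, an inward rectifier potassium channel, rose most with bryostatin in REH, and its window is chr17:70169282-70169581 on the plus strand.
KCNJ2: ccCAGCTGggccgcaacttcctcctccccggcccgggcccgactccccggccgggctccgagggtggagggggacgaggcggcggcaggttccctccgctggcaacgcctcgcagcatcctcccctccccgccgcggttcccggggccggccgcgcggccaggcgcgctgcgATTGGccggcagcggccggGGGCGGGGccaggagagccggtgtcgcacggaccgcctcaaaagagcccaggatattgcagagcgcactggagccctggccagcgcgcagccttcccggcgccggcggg
EGFL7, a secreted factor known from endothelium, carried H3K27me3 in all 6 Raji libraries, and its window is chr9:136658606-136658905 on the plus strand.
EGFL7: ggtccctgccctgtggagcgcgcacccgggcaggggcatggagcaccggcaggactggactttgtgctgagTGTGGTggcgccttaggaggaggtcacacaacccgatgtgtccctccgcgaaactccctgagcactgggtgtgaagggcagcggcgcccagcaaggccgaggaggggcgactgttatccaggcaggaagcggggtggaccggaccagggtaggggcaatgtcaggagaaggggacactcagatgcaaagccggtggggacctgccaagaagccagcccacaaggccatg
IGLL1, the lambda5 subunit of the surrogate light chain, is the precursor B cell gene of highest REH signal among the members, and its window is chr22:23580241-23580540 on the minus strand.
IGLL1: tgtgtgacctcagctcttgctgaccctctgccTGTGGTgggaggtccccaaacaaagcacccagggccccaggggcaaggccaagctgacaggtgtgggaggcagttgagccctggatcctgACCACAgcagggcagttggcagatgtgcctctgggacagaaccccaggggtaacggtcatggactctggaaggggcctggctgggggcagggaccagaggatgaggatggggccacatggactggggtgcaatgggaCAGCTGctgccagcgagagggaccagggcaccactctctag

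The windows differed in base composition. The ratio of observed to expected CpG dinucleotides was 0.90 at CBFA2T3, 0.86 at KCNJ2 and 0.07 at IGLL1. Over all 548 genes, in 300-base windows around the canonical start read from hg38, the median GC content was 73.0%, against 67.3% for 8012 of the 8013 genes marked in at least 5 libraries of both lines, 64.3% for the 432 genes marked in at least 5 Raji and 0 REH libraries and 63.7% for all genes. A CpG ratio above 0.6 was found in 83.4% of the members, 92.8% of the genes marked in both lines, 66.4% of those marked in Raji and not REH, and 67.3% of all genes. The members were thus mostly CpG-rich starts.

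Motif letters were counted in the same windows as a description. The ETS letters lay in 1.82% of the members, in 10.8% of the genes marked in both lines and in 6.14% of all genes. The RUNX letters lay in 7.85% of the members, 8.15% of the genes marked in both lines and 10.7% of all genes. For the SP1 letters these shares were 49.3%, 44.6% and 34.0%. The NFY letters were in 28.5% of the members, 37.5% of the genes marked in both lines and 36.1% of all genes. The other motifs were in 1.82% to 16.4% of the members.

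Depth and library differences bear on what follows. Read numbers were inferred from the value of 1 read in the scaled coverage, which could be done in 48 libraries. These held an estimated 5.12 to 47.9 M mapped reads, with 13.5 to 47.9 M in the Raji H3K4me3 libraries and 10.2 to 27.9 M in those of REH. Signal at a start is the summed coverage of all peaks that touch any start of the gene, in multiples of the library's median region. The weakest peak listed stood at 0.0188 to 0.191 in the Raji H3K4me3 libraries. The median REH signal of all 548 genes was above each of these lowest listed values. Since the rule asked for called REH peaks, this was largely set by the rule. It does not show that a like peak in Raji would have been called. The replicate 1 libraries of NALM6 were scaled in another way than the rest, and their median peak of 583.5 to 916.5 bp was shorter than in the other NALM6 libraries except bryostatin replicate 3 of H3K27me3, at 380 bp. A Raji library labelled H3K27me3 (untreated replicate 2) went against its label. It had peaks at 96.9% of the 8013 starts marked with H3K4me3 in both lines, against 0.337% to 13.7% in the other 5 Raji H3K27me3 libraries. The main shares that rest on it are given with and without it.

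The B-lineage identity of the lines was visible at their starts. PAX5, EBF1 and CD79A, which define the B lineage, carried H3K4me3 in 6 of 6 libraries of both REH and Raji. In NALM6, PAX5 and EBF1 had it in 6 of 6 libraries and CD79A in 3. They are part of a longer list of markers, not all of which reached 6 of 6 in every line. VPREB1, the other surrogate light chain gene and a defining precursor marker, had no H3K4me3 peak in REH or Raji and one in 6 of 6 NALM6 libraries. None of the 14 myeloid and 9 erythroid or megakaryocytic genes listed was a member, and 11 and 9 of them were in the set marked in 0 libraries of either line.

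At the REH starts themselves the members spanned a wide range of signal. The median over the 548 genes was 0.796, the lowest 0.325 and the highest 6.72, beside a median of 1.07 for the 8013 genes marked in both lines. Called length was close in both sets, with medians of 2578 and 2515 bp, and mean coverage was 436 and 581 RPKM. The members were thus a little weaker than shared starts and of like width.

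Just inside the rule, with 5 REH libraries, LKAAEAR1 stood at 3.25 and C22orf15 at 2.74 in the median REH library. Just outside it were 115 genes with 4 REH and 0 Raji libraries, led by H2AB1 at 0.564 and HBEGF at 0.479. A further 40 genes had 6 REH libraries and 1 Raji library, and among them CD24, a B cell surface glycoprotein, stood at 2.55 in REH and at 0.0417 in its single Raji library.

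The 10 strongest members were led by CBFA2T3. It stood at 7.60, 8.09 and 7.62 in the untreated and 5.53, 5.83 and 5.36 in the treated REH libraries, with no value in any Raji library. BAHCC1 followed with a median of 6.53, ELFN1 with 5.79 and EGFL7 with 5.65. The next were IGF2BP1, an oncofetal RNA-binding protein, at 4.50, LEF1, the Wnt-responsive transcription factor of early lymphocytes, at 4.40, KCNN1, a calcium-gated potassium channel, at 4.38, CHST15, a sulfotransferase, at 4.21, ZIC2, a zinc finger factor of neural development, at 4.01, and IGLL1 at 3.86. CBFA2T3, EGFL7 and KCNN1 had the longest called length of all members. Length, like signal, is summed over all peaks at the starts of a gene. Besides the region over its canonical start, each of these genes had one away from it, at 34527, 1005 and 12427 bp in that order. A rank by summed signal or length is thus not a rank of single regions.

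Among the gene lists, genes known as high in ETV6-RUNX1 leukemia stood out by count. Of 10 genes listed, 8 were members (80.0%, beside 2.74% of all genes), namely IGF2BP1, KCNN1, BIRC7, PCLO, CLIC5, NOVA1, ARHGEF4 and DSC3, and the other 2 were marked in both lines. The list was drawn up from general knowledge of this leukemia, with earlier results of these data known, so its count is not independent evidence.

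**Figure D1:**
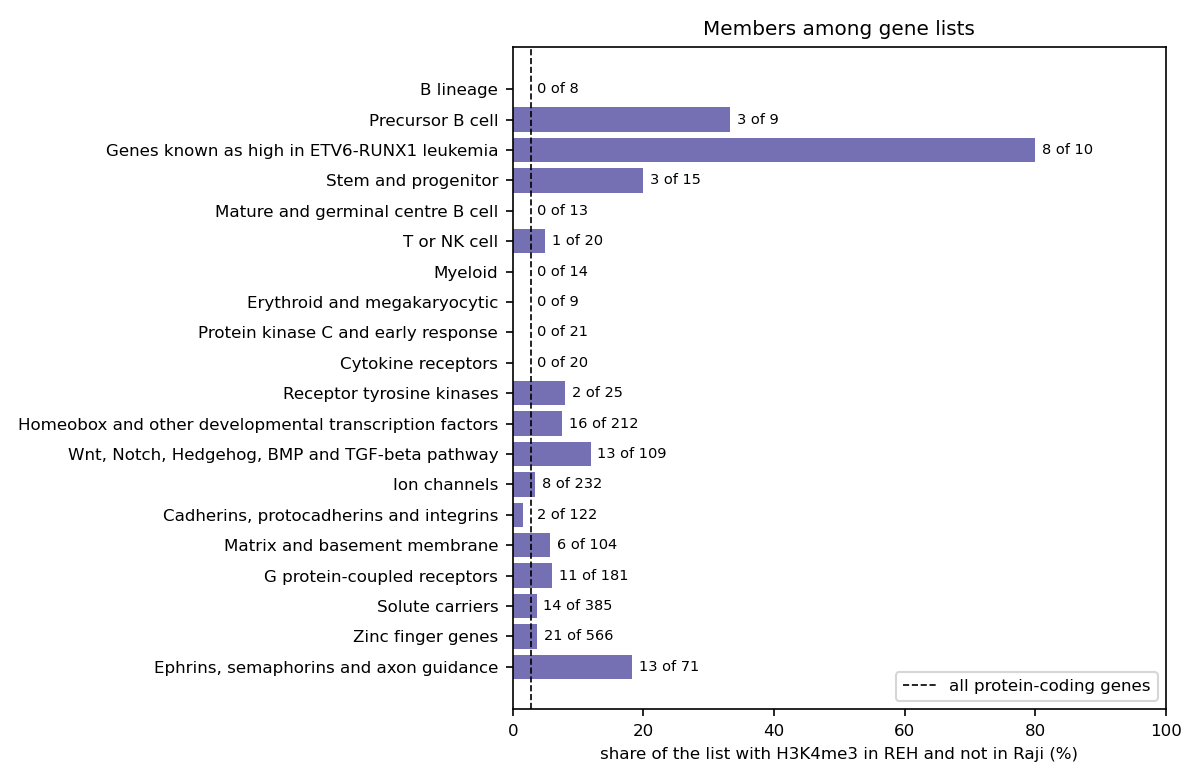
Share of each gene list, in percent on the horizontal axis, that had H3K4me3 at a start in at least 5 of 6 REH and 0 of 6 Raji libraries, with the number of members and of listed genes beside each bar; a list need not hold a whole family. The dashed line is the 2.74% of all 20033 protein-coding genes, and the list of genes high in ETV6-RUNX1 leukemia reaches 80.0%.

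Their REH levels were spread widely. IGF2BP1 ranged from 4.08 to 5.03 over the 6 REH libraries, and KCNN1 from 3.75 to 4.99. PCLO, a presynaptic scaffold, ranged from 1.19 to 1.63 and BIRC7, an inhibitor of apoptosis also called livin, from 0.761 to 1.73. CLIC5, an ezrin-associated chloride channel protein, had a median of 0.702, NOVA1, a neuronal splicing factor, 0.636, ARHGEF4, a guanine nucleotide exchange factor, 0.542, and DSC3, a desmosomal cadherin, 0.475. In NALM6 only KCNN1 was marked in at least 3 libraries, at 0.378 or less, and the other 7 had no NALM6 H3K4me3 peak.

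Precursor B cell genes gave 3 members of 9 listed (33.3%), and all 3 were shared with NALM6. IGLL1 stood at 4.51, 4.73 and 4.53 untreated and 2.67, 3.21 and 3.17 with bryostatin in REH, and at 0.979 to 3.44 in NALM6. DNTT, which encodes terminal transferase, had a median of 1.22 in REH and a peak in 5 of 6 NALM6 libraries, the highest at 0.497. RAG2, a subunit of the V(D)J recombinase, ranged from 0.722 to 1.01 in REH and had a peak in 4 NALM6 libraries, the highest at 0.220. RAG2 shares its REH region with the start of IFTAP. RAG1, the partner of RAG2, was no member because it was marked in 6 of 6 Raji libraries.

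Stem and progenitor genes gave 3 members of 15 listed (20.0%). ERG, an ETS factor of hematopoietic stem cells, had a median of 1.24, HOXA9, a homeobox factor, 1.14, and FLT3, the receptor tyrosine kinase of early progenitors, 1.10. ERG had a NALM6 peak in 3 libraries, HOXA9 in 1 and FLT3 in 0. Of the 20 T and NK cell genes only BCL11B, a T lineage factor, was a member, with a median of 1.00 and H3K27me3 in 6 of 6 REH libraries. The 8 pan-B, 13 mature and germinal centre B cell, 20 cytokine receptor and 21 protein kinase C and early response genes gave 0 members, and 7 of the mature B cell genes were marked in Raji and not in REH.

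**Figure D2:**
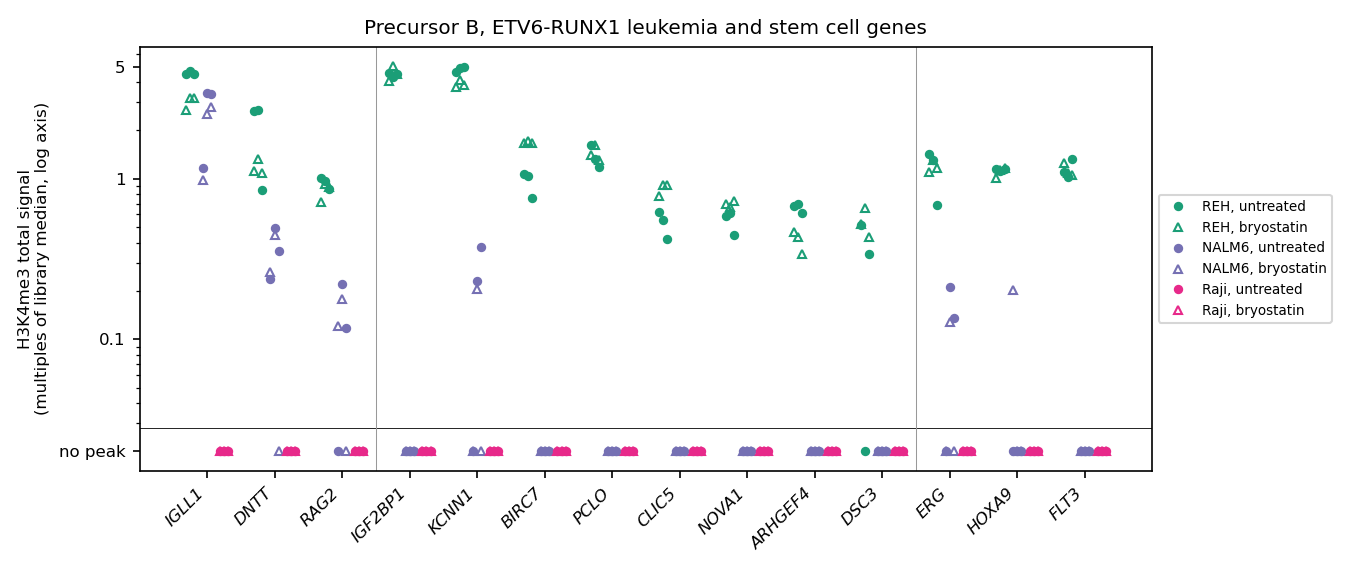
H3K4me3 total signal at the starts of the 14 members from the precursor B cell, ETV6-RUNX1 leukemia and stem cell lists (left to right, separated by lines), in multiples of each library's median region on a log axis. Each point is a library, and points on the lowest level had no peak; all Raji points and most NALM6 points of the middle group lie there.

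Signalling and developmental families made up a further block. Axon guidance genes gave 13 members of 71 listed (18.3%), led by EFNB2, an ephrin ligand, at 2.85 and its receptor EPHB4 at 2.65, and 6 of the 13 also carried H3K27me3 in at least 3 REH libraries. The Wnt, Notch, Hedgehog, BMP and TGF-beta pathway gave 13 of 109 (11.9%). These were the ligands BMP2, BMP6, BMP8B and WNT11, the receptors FZD8, LRP5, LRP6, ACVR1, SMO and TGFBR3L, and the effectors LEF1, GLI3 and SMAD1. The 13 thus held ligands, receptors and nuclear effectors, but not of each pathway, and none of them is a Notch ligand or receptor. Of the 13, 7 were marked in at least 3 NALM6 libraries, beside 307 of all 548 members (56.0%).

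Homeobox and other developmental transcription factors gave 16 members of 212 (7.55%), led by ZIC2, IRX3, SOX11 and FOXD1, and 6 of the 16 were marked in NALM6. G protein-coupled receptors gave 11 of 181 (6.08%), matrix genes 6 of 104 (5.77%) and a list of 25 receptor tyrosine kinases that leaves out the ephrin receptors and FLT3 gave 2, TYRO3 and MERTK. Ion channels gave 8 of 232 (3.45%), solute carriers 14 of 385 (3.64%) and cadherins and integrins, taken by symbol and without desmosomal cadherins such as DSC3, 2 of 122 (1.64%), beside 2.74% of all genes. Zinc finger genes gave 21 of 566 (3.71%), and 19 of these 21 were marked in at least 3 NALM6 libraries. The count was 1 of 8 in the ETV6-RUNX1 list and 307 of 548 over all members, and the difference between the lists was not tested.

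Some members share a start region and are not separate observations. The 548 genes lay over 550 REH regions, and 24 of these regions were shared by 50 members, such as GABRA4 with GABRB1, SNRPN with SNURF, and GRIN1 with LRRC26. By chromosome, the members were 4.89% of the genes of chromosome 18 (13 of 266), 4.03% of chromosome 13 (13 of 323) and 0.699% of chromosome X (6 of 859).

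H3K4me2 followed H3K4me3 in REH. A peak lay at 546 of the 548 starts (99.6%) in at least 3 of 6 REH libraries, beside 98.5% of the genes marked in both lines and 57.2% of all genes. CBFA2T3 ranged from 13.4 to 18.1 and EGFL7 from 15.0 to 24.0 multiples of the median H3K4me2 region, and IGLL1 from 7.43 to 9.08. GLI3 at 0.810 and SMAD1 at 0.587 were at the low end among the named genes.

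**Figure D3:**
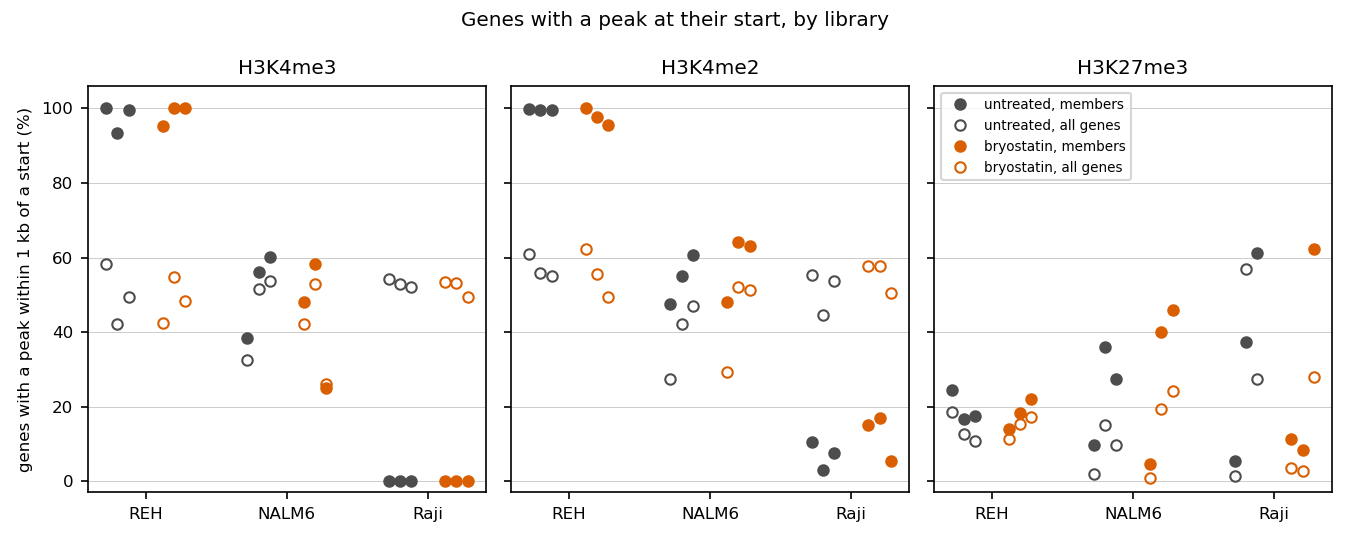
Share of genes with a peak within 1 kb of a start, in percent, by line and mark, for the 548 members (filled) and all 20033 genes (open), untreated and with bryostatin. Each point is a library; REH and Raji H3K4me3 follow from the rule, NALM6 lies near or above the share of all genes, and Raji H3K4me2 lies below it in all 6 libraries.

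In Raji, H3K4me2 was called at a minority of these starts. It lay in at least 3 of 6 libraries at 62 members (11.3%), beside 55.8% of all genes and 3.25% of the 7713 genes with H3K4me3 in neither line, and in 0 libraries at 446 members. Many genes have several starts, and at 52 of the 62 the Raji peaks overlapped the REH H3K4me3 region in at least 3 libraries. By library it lay at 2.92% to 17.0% of the members. Some members had 6 of 6 libraries, among them VAV3, an exchange factor downstream of lymphocyte receptors, with a median of 0.975, PLEKHO1, a regulator of PI3K signalling, with 1.80, the glutamate receptor gene GRIN1 with 0.737, its neighbour LRRC26 with 0.485 and MYO15B with 0.338. At PLEKHO1 the Raji region called in all 6 libraries lay 8815 bp from the canonical start, at another start of the gene, while the REH H3K4me3 region held the canonical start. Raji H3K4me2 overlapped that REH region in 2 libraries at PLEKHO1 and in 6 at VAV3, GRIN1, LRRC26 and MYO15B.

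By the rule no Raji H3K4me3 peak lay within 1 kb of these starts. The nearest one lay within 2 kb of a start for 9 members, within 5 kb for 31, within 10 kb for 66 and within 50 kb for 240. At 156 members (28.5%) the Raji libraries held no peak at all, whatever the mark, with or without the library that went against its label. That share was 49.7% of the 7713 genes marked in neither line and 21.1% of all genes.

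H3K27me3 in Raji lay over part of the set. It was called in at least 3 of 6 libraries at 200 members (36.5%), beside 15.0% of all genes, 18.9% of the 7713 genes marked in neither line and 7.55% of those marked in both lines. The count rested on the 3 libraries with most peaks, and without untreated replicate 2 (the library that went against its label), untreated replicate 3 or bryostatin replicate 3 it fell to 12.2% each time. With untreated replicate 2 left out, at least 3 of 5 libraries gave 12.2% of the members and 4.21% of all genes, and at least 2 of 5 gave 55.7% and 22.9%. The members' share was above that of all genes in each of these counts, but below it when at least 1 of 6 libraries was asked for (67.7% beside 70.8%). At 156 of the 200 members the peaks overlapped the REH H3K4me3 region in at least 3 libraries, and at 19 in none.

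The 5 members with 6 of 6 Raji H3K27me3 libraries and the highest REH H3K4me3 signal were EGFL7, KCNN1, CMTM3, RAP1GAP2 and ZNF423. EGFL7 ranged from 1.90 to 4.20 multiples of the median Raji H3K27me3 region, and KCNN1 from 0.790 to 1.34. CMTM3, a MARVEL domain protein, ranged from 0.638 to 1.39, RAP1GAP2, a Rap1 GTPase activator, from 0.652 to 4.02, and ZNF423, an EBF1-binding zinc finger factor, from 0.377 to 1.13. Of these, EGFL7, KCNN1 and CMTM3 had no H3K27me3 peak in REH, while RAP1GAP2 had one in 6 of 6 REH libraries, which overlapped its REH H3K4me3 region in 1.

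In REH, H3K27me3 lay at 105 members (19.2%) beside 15.2% of all genes, 3.03% of the genes marked in both lines and 26.2% of those marked in neither. Among them were SEMA6A, a transmembrane semaphorin, with 3.24 to 7.02 multiples of the median H3K27me3 region in 6 of 6 libraries, DSC3 with 0.843 to 2.88, HMGA2, an oncofetal chromatin protein, with 0.410 to 2.56, and BCL11B with 0.887 to 2.49. At 97 of the 105 members the peaks overlapped the REH H3K4me3 region in at least 3 libraries, as in all 6 at these 4 genes, and in bulk libraries marks on the same chromosome and marks in different cells cannot be told apart.

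NALM6, which the rule did not use, divided the members. H3K4me3 was called at 307 of them (56.0%) in at least 3 of 6 NALM6 libraries, beside 51.5% of all genes, 98.1% of the genes marked in both lines, 23.4% of those marked in Raji and not REH and 1.36% of those marked in neither. A peak lay in 6 of 6 libraries at 130 members and in 0 of 6 at 212. By library the share ran from 25% to 60.0%, lowest in bryostatin replicate 3, whose weakest listed peak stood at 0.570 and which held 4391 peaks. Replicate 1 of both groups left out, at least 2 of 4 libraries gave 58.2%.

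Each value is relative to the median region of its own line, and replicate 1 of NALM6 was scaled in another way. The strongest members shared with NALM6 were CBFA2T3, BAHCC1, EGFL7, LEF1 and CHST15. BAHCC1 stood at 4.71 to 5.84 in NALM6 beside 5.67 to 6.98 in REH, and LEF1 at 2.63 to 3.45 beside 3.48 to 4.84. CBFA2T3 stood at 0.762 to 1.75 beside 5.36 to 8.09, and EGFL7 at 0.371 to 1.61 beside 4.64 to 7.58. BAHCC1 overlapped between the leukemia lines in these ranges, and LEF1, CBFA2T3 and EGFL7 did not.

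Those with no NALM6 peak were led by ELFN1, IGF2BP1, LKAAEAR1, NETO1, an auxiliary subunit of kainate receptors, and TENM4, a teneurin. Their REH medians were 5.79, 4.50, 3.25, 3.15 and 2.93. H3K4me2 in NALM6 was called at 336 members (61.3%, beside 48.4% of all genes), and of these 5 genes LKAAEAR1 had it in 3 libraries and the other 4 in 0.

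H3K27me3 in NALM6 was called at 190 members (34.7%, beside 13.8% of all genes). By library the members' share ran from 4.74% to 45.8%, lowest in replicate 1, at 9.67% untreated and 4.74% with bryostatin. At 166 of the 190 the peaks overlapped the REH H3K4me3 region in at least 3 libraries, and at 15 in none. NALM6 H3K27me3 lay at 98 of the 212 members with no NALM6 H3K4me3 (46.2%) and at 70 of the 307 with H3K4me3 in at least 3 libraries (22.8%). The split ran the same way for REH H3K27me3, at 27.8% and 13.7%, while Raji H3K27me3 was at 34.9% and 35.2%. Without Raji untreated replicate 2 the Raji shares were 8.96% and 14.0% at 3 of 5 libraries, and 56.1% and 53.4% at 2 of 5. The GC content of both groups was close, with medians of 72.2% and 73.3%. Of the 200 members with Raji H3K27me3, 120 (60.0%) also had it in NALM6, beside 22 of the 177 (12.4%) with none in any Raji library. Without Raji untreated replicate 2 these were 44 of 67 (65.7%) at 3 of 5 libraries and 152 of 305 (49.8%) at 2 of 5, and the 22 of 177 did not change. Members with some Raji libraries, but fewer than asked for, are in neither group. The same counts were not made for genes outside the set.

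Bryostatin was then compared with no treatment in each line, in H3K4me2 and, for REH and NALM6, in H3K4me3. In REH H3K4me3, limma with Benjamini-Hochberg adjustment over all regions called in all 6 libraries passed 36 of 469 member regions (7.68%), beside 121 of 7238 of all regions (1.67%). Of the member regions 16 rose (beside 0.815% of all regions rising) and 20 fell (beside 0.857%). These are the starts of 37 of the 486 members that had a region in the test, since IL17RC shares a region with a neighbour. The groups did not overlap at 30.3% of member regions, beside 17.6% of all regions, and the median change was -0.02 beside -0.0011 on the log2 scale.

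Pairing of treated and untreated REH libraries was inferred from the labels' replicate numbers 1 to 3. Deviations from the group mean correlated at 0.179 to 0.311 for equal numbers, and at -0.281 to 0.0942 for unequal ones. The p-values printed come from the model without this pairing. With the replicate as a block 58 member regions (59 members) and 202 regions in all passed, among them all 121. The calls rest on the summed signal of a region: with the maximum in its place 7 members passed, with mean signal per base 0 members and 0 regions in all, and without centring 14 members. Leaving out untreated replicate 3 gave 63 members, and leaving out bryostatin replicate 1, 2 or 3 gave 20, 20 and 21.

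Values below are those of the tested region, which joins all peaks that overlap among the 6 libraries, so they can differ from the signal at a start given above. The largest rise was at KCNJ2, which sets the resting potential of many cells. It stood at 0.665, 0.536 and 0.409 untreated and at 1.49, 1.51 and 1.55 with bryostatin, so the groups did not overlap. The log2 change was 1.52 (SE 0.14, adjusted p of limma = 0.000183), over chr17:70167621-70172450 of hg38, which holds the canonical start, and the called length went from 2747 bp ± 1160 (SD, n = 3) to 4283 bp ± 349.5 (SD, n = 3).

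BMP2, a bone morphogenetic ligand, stood at 0.661, 0.567 and 0.603 untreated and 1.35, 1.28 and 1.26 with bryostatin. It rose by 1.09 on the log2 scale (SE 0.08, adjusted p of limma = 7.15e-05) over chr20:6767121-6770830, the canonical start. Neither KCNJ2 nor BMP2 had an H3K4me3 peak in NALM6. HVCN1, the voltage-gated proton channel of B cells, stood at 0.580, 0.565 and 0.586 untreated and 1.01, 1.10 and 0.994 treated, which is 0.84 on the log2 scale (SE 0.08, adjusted p of limma = 0.000183).

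The other genes that rose did so by less. BIRC7 rose by 0.84 on the log2 scale, HMGA2 by 0.80, ANTXR2, a capillary morphogenesis protein and anthrax toxin receptor, by 0.74 and CLIC5 by 0.72. SHANK1, a postsynaptic scaffold, rose by 0.69, RHOC, a small GTPase, by 0.54, IRX3 by 0.50 and the potassium channel subunit gene KCNS3 by 0.49. SPRY2, an inhibitor of receptor tyrosine kinase signalling, rose by 0.48, SIRPA by 0.40, the guidance ligand SLIT2 by 0.37 and IRS2, an insulin receptor substrate, by 0.30. With mean signal per base the change at SPRY2 was -0.070. PRR5L rose by 0.61 at a region 79483 bp from its canonical start. Of these 16 genes, 5 had NALM6 H3K4me3 in at least 3 libraries. At 6 of the 16 the called length was longer in all treated than in all untreated libraries. Summed signal grows with called length, so the 16 were picked partly by length. The share over all regions was not counted.

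The largest fall was at CBFA2T3, at the region chr16:88973641-88979240 that holds its canonical start. It stood at 2.72, 2.87 and 2.14 untreated and 1.46, 1.62 and 1.08 treated, and fell by 0.90 on the log2 scale (SE 0.14, adjusted p of limma = 0.00497). Its other region, chr16:88935471-88942680 around the promoter sequence shown above, stood at 4.88 to 5.48 and 4.07 to 4.28, with a log2 change of -0.31 (SE 0.07, adjusted p of limma = 0.0653), which did not pass. SEMA6A stood at 0.969, 0.922 and 0.932 untreated and 0.555, 0.518 and 0.478 treated, which is -0.87 on the log2 scale (SE 0.08, adjusted p of limma = 0.000285). This start carried H3K27me3 in REH in both groups.

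Of the 3 antigen receptor assembly genes, 2 fell. IGLL1 stood at 4.51, 4.73 and 5.82 untreated and 2.67, 3.21 and 3.17 treated, and fell by 0.73 on the log2 scale (SE 0.10, adjusted p of limma = 0.00313). DNTT stood at 2.63, 2.70 and 2.28 untreated and 1.62, 1.80 and 1.56 treated, and fell by 0.61 (SE 0.08, adjusted p of limma = 0.00181). RAG2 had a log2 change of -0.17 (SE 0.10, adjusted p of limma = 0.610). The precursor B list thus had 2 of 3 members lower and 0 higher, beside 0.857% and 0.815% of all regions. With 3 genes this is a description and was not tested.

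**Figure D4:**
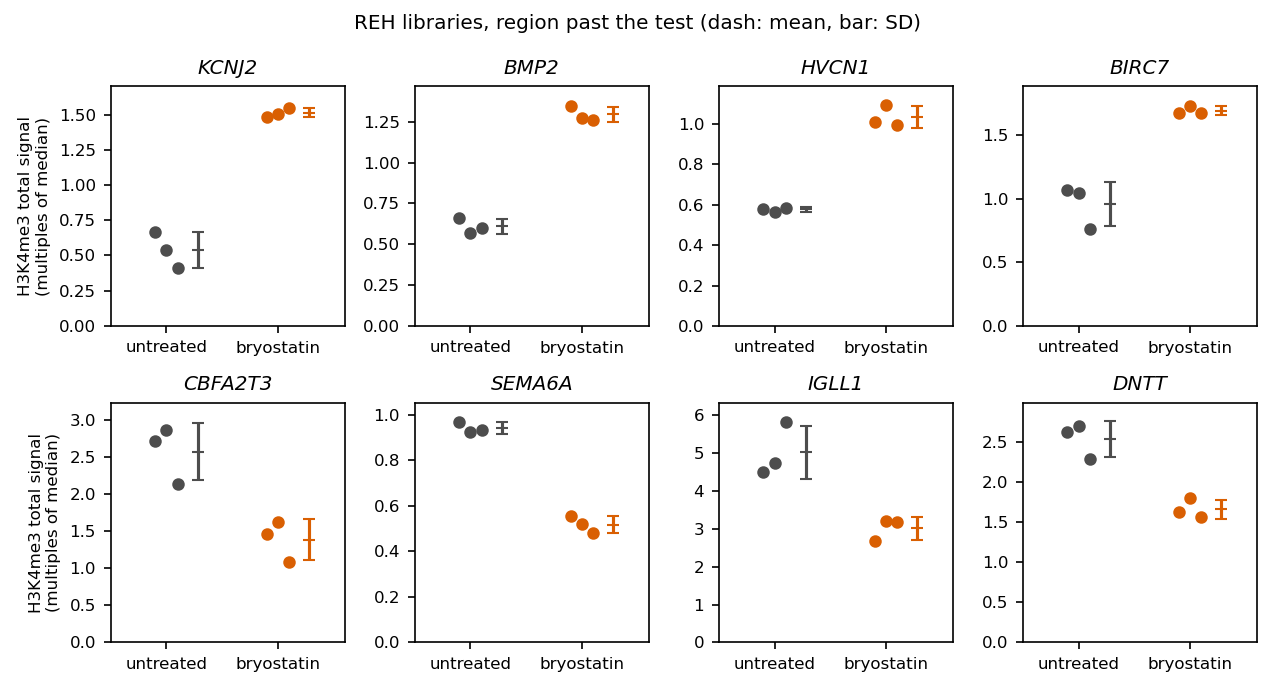
H3K4me3 total signal of the region past the test at 8 members in REH, in multiples of the library median on axes that start at 0. Points are the 3 untreated and 3 bryostatin libraries, the dash and bar are the mean and SD, and the groups do not overlap at any of the 8.

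The ETV6-RUNX1 list was split. Of 7 members tested, BIRC7 and CLIC5 rose, and ARHGEF4 and KCNN1 fell, by 0.69 and 0.45 on the log2 scale. At KCNN1 the region that fell lay 12427 bp from the canonical start, and the region over that start had a log2 change of -0.09. IGF2BP1 had a log2 change of 0.02 (SE 0.08) and LEF1 of -0.02 (SE 0.07). Over all tested members 37 of 486 passed, and of all regions 1.67%, with 0.815% higher and 0.857% lower. The lists are small, and no difference between them was tested. Axon guidance genes had 1 of 12 higher (SLIT2) and 2 lower (SEMA6A and PLXND1), ion channels 2 of 8 higher and 1 lower, and the 16 developmental factors 1 higher (IRX3). The 16 zinc finger genes tested had 0 calls either way.

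Among the remaining genes that fell, GRID2IP, a Purkinje cell scaffold, and SORBS3, or vinexin, fell by 0.69 each, LFNG, the fringe glycosyltransferase that modifies Notch, by 0.65, RCOR2, a LSD1 corepressor, by 0.57, RHOB by 0.56 and the collagen gene COL5A1 by 0.56. RASD1 fell by 0.49, CKB, the brain creatine kinase, by 0.48, the semaphorin receptor PLXND1 by 0.44, TMEM121 by 0.44, IL17RC by 0.41, TNS1 by 0.40, LKAAEAR1 by 0.38 and GPSM1 by 0.37. The regions of GRID2IP, TNS1 and CKB lay 18411, 4086 and 40 bp from the canonical start, and 32 of the 37 members past the test were called over it. Of the 20 regions that fell, 13 were at members with NALM6 H3K4me3 in at least 3 libraries.

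**Figure D5:**
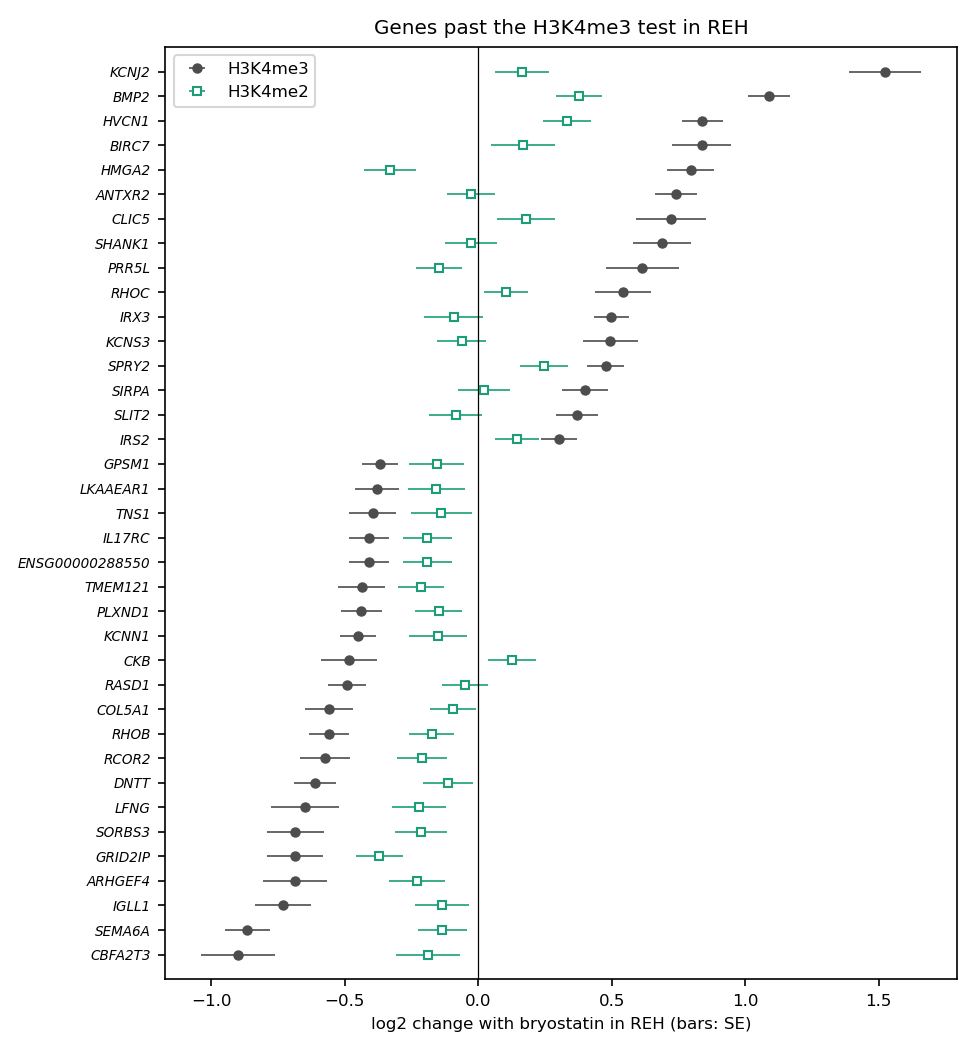
Log2 change with bryostatin in REH, with its SE, at the 37 members past the H3K4me3 test, for H3K4me3 (filled) and for the overlapping H3K4me2 region (open). The H3K4me3 changes run from -0.90 to 1.52, and none of the overlapping H3K4me2 regions passed its own test.

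At the same starts H3K4me2 moved less. Of the 20 regions where H3K4me3 fell, the overlapping H3K4me2 region had a log2 change below 0 at 19, with a median of -0.16, and of the 16 where it rose, above 0 at 9, with a median of 0.06. Over all member regions of H3K4me2 the median was -0.06 and 29.3% lay above 0, beside -0.02 and 43.6% for all regions. None of the overlapping regions passed. KCNJ2 had 0.16 (SE 0.10), BMP2 0.38 (SE 0.09, adjusted p of limma = 0.0523) and CBFA2T3 -0.19 (SE 0.12). HMGA2 had -0.33 (SE 0.10) beside its rise in H3K4me3.

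Over all member regions of REH H3K4me2, 7 of 549 passed (1.28%, beside 1.45% of all 10791 regions), all 7 higher (beside 1.42% of all regions) and 0 lower (beside 0.0371%). The groups did not overlap at 17.7% of member regions and 14.7% of all regions. RHOC led them, from 0.503, 0.488 and 0.424 untreated to 1.09, 1.27 and 1.07 treated, which is 1.28 on the log2 scale (SE 0.11, adjusted p of limma = 6.12e-05) over chr1:112699211-112703140. That region lay 3987 bp from the canonical start, and the region over the canonical start had a change of 0.10. Of the 7 regions only those of HTR7 and CPNE7 held the canonical start. ADCY6, an adenylyl cyclase, rose by 0.91, ARHGAP23 by 0.80, ITPKA, an inositol trisphosphate kinase, by 0.71, SHANK1 by 0.60, the serotonin receptor gene HTR7 by 0.53 and CPNE7 by 0.48. The regions of ADCY6, ARHGAP23, ITPKA and SHANK1 lay 5829, 19857, 6947 and 15012 bp from the canonical start, and those over it had changes of 0.35, -0.12, -0.30 and -0.03, none past the test. With mean signal per base the change was -0.062 at ARHGAP23 and -0.10 at ITPKA.

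The members' share was close to that of all regions. With the replicate as a block 15 members and 305 regions in all passed, with the maximum signal 1 member, and with mean signal per base 0 members and 1 region in all. Leaving out untreated replicate 2 gave 4 members, bryostatin replicates 1, 2 and 3 gave 3, 4 and 12.

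In Raji H3K4me2 and in H3K4me3 and H3K4me2 of NALM6 no member region passed limma's adjusted p. H3K27me3 was not put through limma in any line. In Raji H3K4me2, 0 of 22 member regions and 0 of 9316 regions in all passed (0.0%), with 8 and 626 at an unadjusted p under 0.05. The lowest p was at a region 18377 bp from the canonical start of GRIN1 and outside its REH H3K4me3 region. It went from 0.651, 0.765 and 0.637 untreated to 0.296, 0.452 and 0.336 treated, which is -0.94 on the log2 scale (SE 0.22, adjusted p of limma = 0.261). These values are relative to a median that lay 0.21 higher on the log2 scale in the treated libraries without centring. The 22 regions are those called in all 6 libraries, and the median change over them was -0.33 beside -0.03 for all regions. The groups did not overlap at 27.3% of them, beside 10.7% of all regions.

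In NALM6 H3K4me3, 0 of 127 member regions and 0 of 3838 in all passed (0.0%), with 3 and 7 at an unadjusted p under 0.05, and GRIN1 and LRRC26, which share a region, had a log2 change of -0.63 (SE 0.20, adjusted p of limma = 0.9996). The groups did not overlap at 6.30% of the member regions, beside 5.11% of all regions. In NALM6 H3K4me2, 0 of 229 member regions and 0 of 4128 in all passed (0.0%), with 4 and 56 at an unadjusted p under 0.05, and the groups did not overlap at 11.4%, beside 10.4% of all regions. SMAD1, the BMP effector, had 0.606, 0.431 and 0.340 untreated and 1.69, 0.798 and 0.971 treated, which is 1.29 on the log2 scale (SE 0.35, adjusted p of limma = 0.9991). NRIP1, a nuclear receptor corepressor, had 0.91 (SE 0.30). With mean signal per base these changes were -0.030 and -0.41, and the mean called length at SMAD1 was 1901 bp untreated and 5355 bp treated. With replicate 1 of both groups left out, an alternative chosen after seeing the data, 15 regions passed in NALM6 H3K4me2, among them SMAD1 with 1.20 (adjusted p of limma = 0.0429).

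A switch of presence with bryostatin was counted in the marks the rule did not use, since the rule allows none in H3K4me3 of REH or Raji. In each of these 7 combinations of line and mark, 0 members went from 0 untreated to 3 treated libraries with a peak or the other way, beside 78 of 20033 genes that did so in NALM6 H3K4me2 (0.389%), 8 gained in Raji H3K4me2 and 8 in REH H3K4me2 (0.0399% each), 4 lost in REH H3K27me3 (0.02%), 2 lost in REH H3K4me2 (0.00998%), and 1 gained in NALM6 H3K27me3 (0.00499%). By library, Raji H3K4me2 lay at 7.0% ± 3.79 (SD, n = 3) of the members untreated and at 12.5% ± 6.28 (SD, n = 3) with bryostatin, and REH H3K27me3 at 19.6% ± 4.23 and 18.2% ± 4.02 (SD, n = 3 each), differences within the spread between libraries.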

How the data were processed

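Per the labels, reads were processed with bcl2fastq, Trim Galore and Bowtie2 against hg38, and peaks were called with SEACR, whose versions are not given in the sources used here. The deposited peak lists hold the total and maximum signal (coverage) of each peak, which the authors scaled to RPKM in 10 bp bins in 48 libraries; the factor of the 6 NALM6 replicate 1 libraries is not stated. Libraries with control IgG were not analysed here. The mark the labels call H3K27me3 is named H3K27me2 in the series' text, and the labels' name is used.

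Peaks touching 1000 bp around any start of a GENCODE 44 protein-coding gene were joined to that gene. Within each line and mark, peaks sharing at least 1 bp in any of the 6 libraries were joined into regions. Regions called in all 6 were compared as centred log2 total signal with limma 3.58.1 (R 4.3.3), without a block, adjusted by Benjamini-Hochberg at 0.05; the script was tested on simulated data. Same-numbered treated and untreated libraries deviated together in REH (correlations 0.179 to 0.311 for H3K4me3, 0.131 to 0.206 for H3K4me2) and in NALM6 (0.634 to 0.676 and 0.402 to 0.446), taken from the labels' replicate numbers. In NALM6, replicates 2 and 3 also correlated across numbers (0.507 and 0.565 for H3K4me3, 0.406 and 0.354 for H3K4me2). Replicate 1 correlated negatively with both, so the NALM6 values set replicate 1 apart and do not single out pairing by number. A mark counted as called at 3 of 6 libraries. Named genes are all members of symbol lists of at most 25 genes, the 4 of highest REH signal of each family, the strongest 10, and the extremes of each comparison; other genes past the REH test, IGLL1's promoter and the REH H3K27me3 examples were added after their values were seen. Members and lists were chosen with earlier results of these data known. The symbol pattern for homeobox and developmental factors was narrowed after the data were seen, because it also matched genes that are not factors. A B cell marker and a gene family are not reported here.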

Additional observations from a re-analysis of the deposited data

Results flagged for a closer look

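At ZIC2, the neural zinc finger factor, the H3K4me2 change with bryostatin had opposite signs in the leukemia lines. The log2 change was -0.19 in REH, from 6.15, 6.54 and 6.99 untreated to 5.65, 5.42 and 6.13 treated, and 0.40 in NALM6, from 0.724, 0.569 and 0.519 to 0.733, 0.892 and 0.755. All treated libraries lay below all untreated ones in REH and above them in NALM6, and ZIC2 was picked from the named genes for this. Groups that did not overlap, in either direction, were found at 17.7% of member regions and 14.7% of all regions in REH H3K4me2. In NALM6 H3K4me2 these shares were 11.4% and 10.4%. Neither change passed limma's adjusted p (0.520 in REH and 0.9991 in NALM6), and the difference between the lines was not tested.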

How the results depend on the processing

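Depth, the caller's cutoff and 3 libraries a group limit these values. The number of genes became 831 with an equal number of peaks taken from each H3K4me3 library, and 483 to 582 when a library was left out. With the upper 0.5 of peaks by signal, the share of members with a mark was 30.5% for NALM6 H3K4me3, 2.19% for Raji H3K4me2, 45.8% for NALM6 H3K4me2, 87.8% for REH H3K4me2 and 14.8% for REH H3K27me3. Asking for at least 5 libraries gave 37.8%, 4.74%, 51.1%, 97.6% and, for H3K27me3 in Raji and NALM6, 7.66% and 10.2%. Asking for at least 1 library gave 18.6% for Raji H3K4me2, 67.7% for Raji H3K27me3 and 25.7% for REH H3K27me3, beside 58.5%, 70.8% and 19.8% of all genes.

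For bryostatin in REH H3K4me3, maximum signal passed 20 regions (7 members), mean signal per base 0 (0 members), no centring 44 (14 members), and the replicate block 202 (59 members). Leaving out a library gave 51 to 223 regions and 20 to 63 members. For REH H3K4me2, maximum signal passed 51 (1 member), mean signal per base 1 (0 members), regions called in at least 3 libraries 316 (12 members), and the replicate block 305 (15 members). Leaving out a library gave 62 to 352 regions and 3 to 12 members. Mean signal per base turned the H3K4me2 change at ARHGAP23 to -0.062 and at ITPKA to -0.10 and the H3K4me3 change at SPRY2 to -0.070 in REH, and in NALM6 at SMAD1 to -0.030 and at NRIP1 to -0.41, where maximum signal gave -0.029. Leaving out replicate 1 of both groups, chosen after seeing the data, passed 15 regions in NALM6 H3K4me2. The replicate block passed 0 regions in Raji H3K4me2, whose same-numbered libraries correlated at 0.417, -0.25 and -0.31, and 0 in both NALM6 marks; it changed no other call. The cause of these changes was not tested.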
